A study of Mus musculus with 12 samples.

Results

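The 33 genes described here encode the collagens, proteoglycans, elastic fibre proteins and glycoproteins of the connective tissue of the gut wall, together with matrix proteases, their inhibitors and surface proteins of fibroblasts. Each gene was found through the RefSeq accession of its array probes, and the 33 genes were taken from 22911 gene symbols on the array. A total of 32 were tested, and all 32 were well above background on all 12 arrays. Col15a1, a basement membrane collagen, was not tested, because its 2 probes were above background on 1 and 2 arrays. In 12 of the 33 genes several probes were present, and the brightest stood for the gene.

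The samples were jejunum from male mice, 7 weeks old at the start, of 2 genotypes. Wild-type mice and IAP knockout mice (Akp3-/-, lacking the gene for an intestinal alkaline phosphatase) each received either the vehicle, carboxymethylcellulose sodium salt at 5 g/L in solution, or IIAEK at 600 mg/kg body weight by mouth once a day for 14 days. IIAEK is a pentapeptide of isoleucine (first and second residue), alanine, glutamic acid and lysine, described in the labels as cholesterol-lowering. In the source labels the IIAEK treatment is stated in weeks, but titles and protocol state days. All mice fasted for 8 h before collection, and each of the 4 groups held 3 mice with 1 array per mouse. The labels name no tissue-specific deletion, and give no litter or cage.

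Fibroblasts of the lamina propria, submucosa and muscle layer secrete the fibrillar collagens, of which collagen I is a trimer of Col1a1 and Col1a2 chains and collagen III a trimer of Col3a1 chains. Basement membranes are thin sheets under the epithelium and around vessels and muscle cells, built on a network of collagen IV (Col4a1 and Col4a2 chains) joined to laminin by nidogen (Nid1). Proteoglycans such as decorin and lumican bind to fibrils, fibrillin and elastin form elastic fibres, and lysyl oxidases cross-link both collagen and elastin.

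The promoter windows of genes from both kinds of matrix are shown, because fibrillar and basement membrane genes are compared throughout, and Sparc is added as a matrix gene with large differences between arrays. They come from RefSeq on assembly GRCm38.p6, as the 250 bases before the annotated start, written 5′ to 3′ on the strand of the gene. Capitals mark matches on either strand to the TATA element TATAAA, to the CAAT element CCAAT, or to the GC box GGGCGG, which do not overlap each other here.
Col1a2 (chr6:4505368-4505617, plus strand): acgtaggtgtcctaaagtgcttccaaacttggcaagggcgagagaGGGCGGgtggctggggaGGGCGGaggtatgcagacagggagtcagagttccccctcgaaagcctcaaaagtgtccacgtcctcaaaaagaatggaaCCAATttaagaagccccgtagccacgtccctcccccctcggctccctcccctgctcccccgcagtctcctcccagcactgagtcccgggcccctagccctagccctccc
Col3a1 (chr1:45311288-45311537, plus strand): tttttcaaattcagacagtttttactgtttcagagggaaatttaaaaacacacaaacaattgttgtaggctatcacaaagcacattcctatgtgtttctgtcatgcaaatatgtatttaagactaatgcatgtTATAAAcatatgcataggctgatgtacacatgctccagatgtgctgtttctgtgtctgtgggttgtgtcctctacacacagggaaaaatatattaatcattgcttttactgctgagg
Nid1 (chr13:13437352-13437601, plus strand): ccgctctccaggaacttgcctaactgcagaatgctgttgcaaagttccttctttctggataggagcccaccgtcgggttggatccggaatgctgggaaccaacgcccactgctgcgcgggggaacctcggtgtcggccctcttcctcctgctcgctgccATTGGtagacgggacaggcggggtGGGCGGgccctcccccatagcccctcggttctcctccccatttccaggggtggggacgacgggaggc
Sparc (chr11:55420081-55420330, minus strand): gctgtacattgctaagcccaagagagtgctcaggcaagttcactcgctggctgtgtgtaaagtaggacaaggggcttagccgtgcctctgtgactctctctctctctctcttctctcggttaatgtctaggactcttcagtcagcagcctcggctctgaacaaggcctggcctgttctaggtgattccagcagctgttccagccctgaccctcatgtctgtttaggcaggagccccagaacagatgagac

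Col3a1 held the single TATAAA among the 3 fibrillar genes with a window, whereas Col1a2 held 2 GGGCGG and 1 CCAAT before its start. The Sparc window held none of these letters. Windows of 300 bases, from 250 before to 50 after the start, were at hand for 20 of the 33 genes, as 24 windows. GGGCGG was present in 58.3% of those 24 and in 35.7% of all 32851 windows in the table. CCAAT was present in 29.2% against 37.4%, and TATAAA in 8.33% against 13.6%. These are matches of letters and do not show that a factor binds there.

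The Col4a1 and Col4a2 genes lie head to head on chromosome 8, on opposite strands. Their annotated starts, 11312826 for Col4a1 and 11312805 for Col4a2, lie 22 bases apart counting both ends. Each start lies downstream of the other, so these 22 bases are after the start of both genes. The 2 windows of 300 bases overlap by 78 bases, whereas the 250 bases before each start do not overlap. The stretch between the starts holds 1 GGGCGG and 0 CCAAT. That GGGCGG begins at base 10 of Col4a1 and at base 8 of Col4a2, counted from the start.

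Levels are given as log2 signal relative to the 75th percentile of all probes of the same array, so that a level of 0 equals that percentile and a difference of 1 is a doubling of signal. Because probes differ in brightness, a level is compared between arrays and never between genes. The tests were the moderated tests of limma over all 27565 genes and unnamed probes that passed the filter, with Benjamini-Hochberg adjustment and a threshold of 0.05. A confidence interval is for a difference of group means, with its width set by the spread between mice under that fit. In bulk tissue, fewer cells of a type and less RNA per cell cannot be told apart.

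The Akp3 signal was checked first. Its brighter probe was well above background on 5 of 6 wild-type arrays and on 0 of 6 knockout arrays. The exception was wild-type vehicle replicate 3, at -5.94, which lay within the knockout values of -6.83 to -5.48. The same array was the lowest of all for 12 of 32 matrix genes. The dimmer Akp3 probe met this mark on replicates 2 and 3 of the wild-type IIAEK group (-1.80 and -1.64). It failed on every wild-type vehicle array. The reason was not tested. The 75th percentile of signal lay between 410 and 578 over the arrays. Arrays lay on 2 slides, which were also 2 scans. Slide 1 held replicate 1 of each wild-type group and replicates 1 and 2 of each knockout group, and slide 2 held the rest. The defining genes of smooth muscle and epithelium were detected, with 14 or 15 of 15 and 14 of 14 above background on every array. Exocrine pancreas genes, 10 to 13 of 13 of them above background on every array, differed widely. Their mean log2 deviation was 8.60 on wild-type IIAEK replicate 3 and 3.97 on knockout vehicle replicate 3, and between -2.60 and 0.86 on the other arrays. Both of those arrays were therefore left out in an alternative fit.

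In wild-type mice, 28 of 32 matrix genes had a higher mean on IIAEK than on vehicle, and their median difference was 0.51 on the log2 scale. No gene passed the adjusted threshold. Of all genes tested, 43.8% were higher and 56.2% lower, and the median difference was -0.06. In limma's fit 0 of 27565 genes were called (0%), 0 of the 32 among them, and the smallest adjusted p of a matrix gene was 0.373. At an unadjusted p under 0.05, 14 of 32 matrix genes were higher and 0 lower, against 5.83% and 6.98% of all genes. The groups did not overlap, with all 3 IIAEK arrays above all 3 vehicle arrays, in 14 of 32, against 10.7% of all genes.

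**Figure D1:**
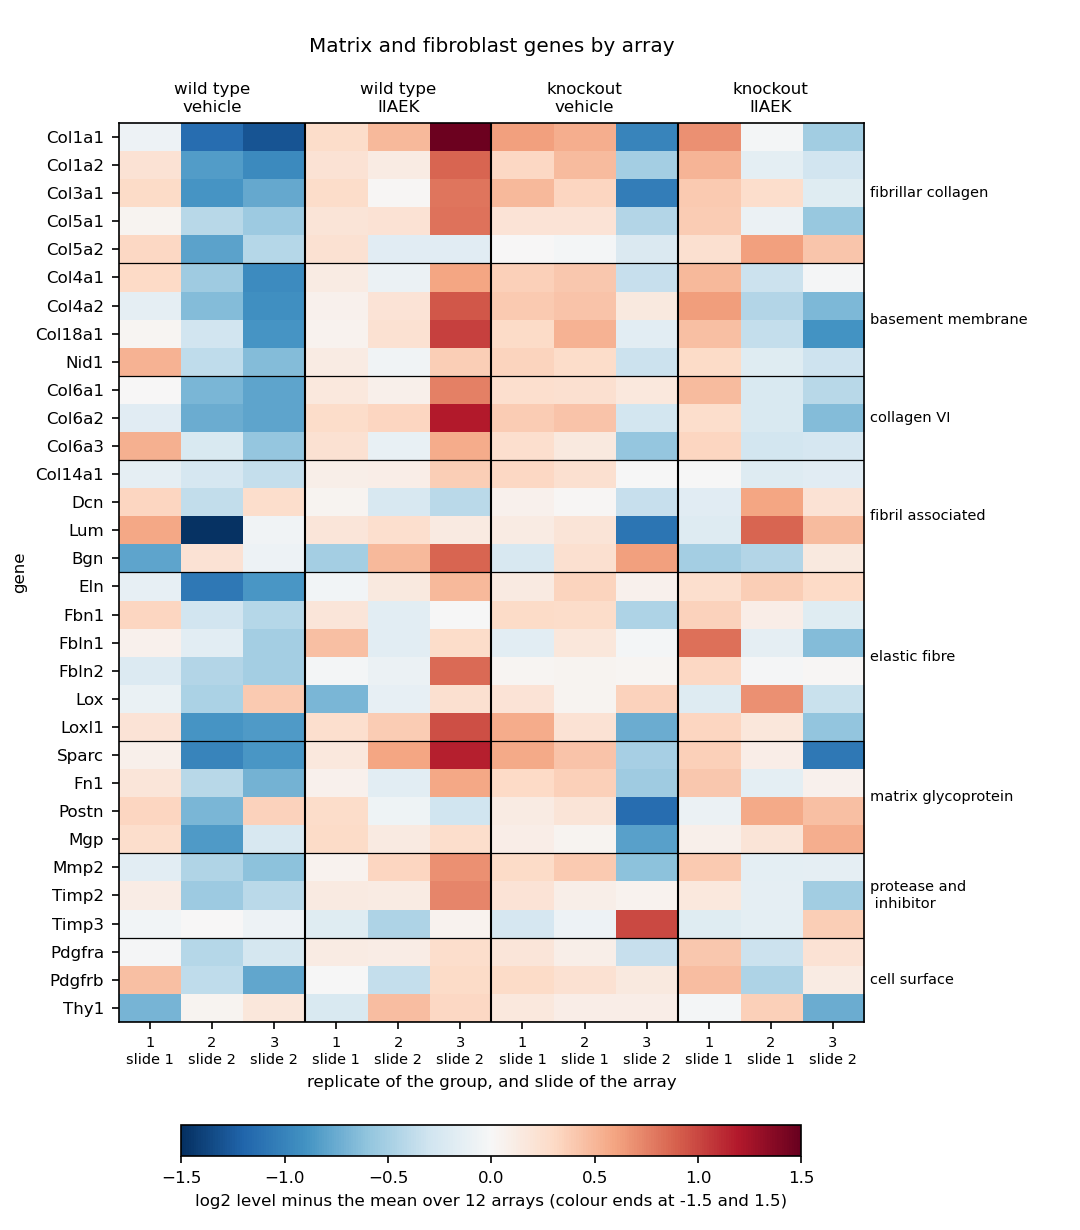
Log2 deviation of each of the 32 matrix genes (rows, by role) from its own mean over 12 arrays (columns, by group, replicate and slide). Wild-type vehicle replicates 2 and 3 are low for most genes, and wild-type IIAEK replicate 3 was the highest array for 19 of 32.

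The fibrillar collagens are taken first. Col1a1, the main chain of collagen I, had the largest difference of the 32 genes in wild type, with levels of 0.52, -0.54 and -0.69 on the 3 wild-type vehicle arrays and 0.88, 1.09 and 2.07 on the 3 wild-type IIAEK arrays. In the knockout its levels were 1.22, 1.15 and -0.39 on vehicle and 1.29, 0.58 and 0.09 on IIAEK. All wild-type IIAEK arrays lay above all wild-type vehicle arrays, and the knockout groups overlapped each other. The wild-type difference was 1.58 (SE 0.50), a ratio of 3.00, with an adjusted p of 0.373 in limma, and the knockout difference was -0.01 (SE 0.50). A second Col1a1 probe gave 1.53 and 0.07.

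Col1a2, its partner chain, had levels of 3.47, 2.41 and 2.29 on wild-type vehicle and 3.47, 3.38 and 4.13 on wild-type IIAEK. Knockout levels were 3.56, 3.73 and 2.74 on vehicle and 3.76, 3.11 and 2.97 on IIAEK. Wild-type vehicle replicate 1 was as high as 2 of the 3 IIAEK arrays, so the groups overlapped, and the difference was 0.93 (SE 0.37). Col3a1, the collagen III chain of loose connective tissue, had levels of 3.21, 2.04 and 2.16 on wild-type vehicle and 3.20, 2.95 and 3.73 on wild-type IIAEK. Its knockout levels were 3.41, 3.25 and 1.89 on vehicle and 3.32, 3.19 and 2.75 on IIAEK. Here too wild-type vehicle replicate 1 overlapped the IIAEK arrays, and knockout vehicle replicate 3 was the lowest of all 12. The wild-type difference of Col3a1 was 0.82 (SE 0.41).

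Collagen V limits the width of collagen I fibrils, and its chains differed from each other. Col5a1 had a wild-type difference of 0.71 (SE 0.28) with groups apart. Col5a2 had levels of -2.32, -3.44 and -3.06 on wild-type vehicle, -2.40, -2.80 and -2.80 on wild-type IIAEK, -2.62, -2.66 and -2.85 on knockout vehicle and -2.39, -2.02 and -2.21 on knockout IIAEK. Its highest array was in the knockout IIAEK group, and the wild-type groups overlapped. On IIAEK the wild-type mean differed by 0.27 and the knockout mean by 0.51 (SE 0.25 for each).

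Of the basement membrane genes, Col4a1 had levels of 1.01, 0.18 and -0.23 on wild-type vehicle and 0.84, 0.63 and 1.30 on wild-type IIAEK. On the knockout arrays it read 1.07, 1.13 and 0.37 on vehicle and 1.20, 0.40 and 0.70 on IIAEK. Both genotypes had overlapping groups. Col4a2 had levels of -0.61, -1.12 and -1.39 on wild-type vehicle and -0.41, -0.26 and 0.46 on wild-type IIAEK. Its knockout levels were -0.08, -0.04 and -0.33 on vehicle and 0.16, -0.92 and -1.14 on IIAEK. Every wild-type vehicle array was below every wild-type IIAEK array and every knockout vehicle array, whereas the knockout groups overlapped. Wild-type differences were 0.60 (SE 0.33) for Col4a1 and 0.97 (SE 0.34) for Col4a2.

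Col18a1, whose cleavage releases endostatin, had levels of 1.08, 0.76 and 0.17 on wild-type vehicle and 1.09, 1.27 and 2.07 on wild-type IIAEK. In the knockout these were 1.34, 1.57 and 0.88 on vehicle and 1.50, 0.68 and 0.14 on IIAEK. The wild-type groups were apart by a margin of 0.01 between wild-type replicates 1, and the difference was 0.81 (SE 0.37). Nid1 had levels of 1.86, 0.96 and 0.69 on wild-type vehicle, 1.46, 1.29 and 1.71 on wild-type IIAEK, 1.67, 1.62 and 1.01 on knockout vehicle and 1.63, 1.15 and 1.03 on knockout IIAEK. Its highest array of all was a wild-type vehicle array, and its groups overlapped in each comparison, with a wild-type difference of 0.32 (SE 0.30).

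**Figure D2:**
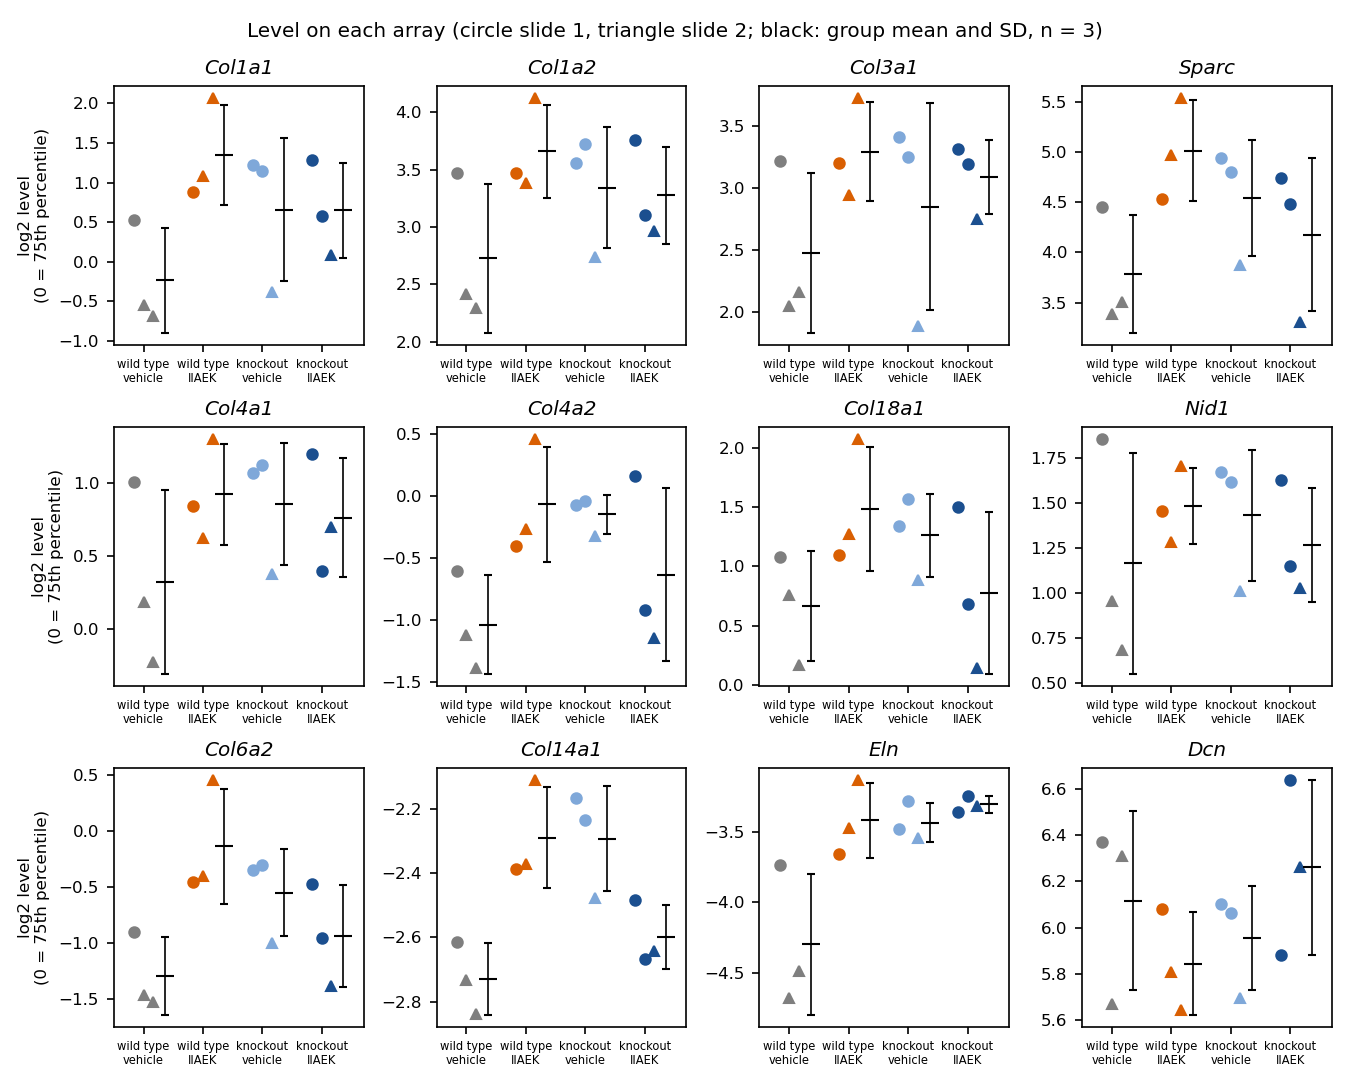
Log2 level (0 is the 75th percentile of the array) of selected matrix genes on each array, by group; circles are slide 1, triangles slide 2, and black marks give the group mean and SD (n = 3). In the wild-type vehicle group the slide 1 array is the highest for Col1a1, Col1a2, Col3a1, Col4a1, Col4a2, Col18a1, Nid1 and Sparc.

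Sparc, a collagen-binding glycoprotein secreted by fibroblasts and endothelial cells, had levels of 4.46, 3.39 and 3.51 on wild-type vehicle and 4.53, 4.98 and 5.54 on wild-type IIAEK. The knockout arrays read 4.94, 4.80 and 3.88 on vehicle and 4.74, 4.48 and 3.31 on IIAEK. Wild-type groups did not overlap, although vehicle replicate 1 was within 0.1 of IIAEK replicate 1. The difference was 1.23 (SE 0.43), a ratio of 2.35, and a second Sparc probe gave 1.40. Fn1, the cell adhesion protein fibronectin, differed by 0.48 on its brightest probe and by 0.74 and 0.49 on the others. Mgp, an inhibitor of calcification, differed by 0.50, and Postn, a matricellular protein, by -0.03.

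Collagen VI forms beaded filaments around cells. Col6a2 had levels of -0.90, -1.47 and -1.53 on wild-type vehicle and -0.46, -0.41 and 0.46 on wild-type IIAEK. Its knockout levels were -0.35, -0.31 and -1.00 on vehicle and -0.47, -0.96 and -1.38 on IIAEK. The wild-type IIAEK group lay above the wild-type vehicle group and its lowest array was level with the highest array of the knockout IIAEK group. The wild-type difference was 1.16 (SE 0.31, 95% interval 0.48 to 1.85, adjusted p 0.373 in limma). Col6a1 differed by 0.82 and Col6a3 by 0.32, and a dimmer Col6a3 probe gave 0.12.

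Elastin (Eln), the core of elastic fibres, had the smallest unadjusted p among matrix genes in wild-type mice. Its levels were -3.73, -4.68 and -4.49 on wild-type vehicle, -3.65, -3.47 and -3.13 on wild-type IIAEK, -3.48, -3.28 and -3.54 on knockout vehicle and -3.35, -3.24 and -3.31 on knockout IIAEK. On this brightest probe the wild-type vehicle arrays were the lowest 3 of the 12, and the other 3 groups overlapped. The wild-type difference was 0.88 (SE 0.23), with an unadjusted p of 0.00235 and an adjusted p of 0.373 in limma. A second Eln probe gave 0.68. In the knockout the brightest probe differed by 0.13 and the second by -0.20. The second probe was lowest on a knockout IIAEK array (-4.98), below its lowest wild-type vehicle array (-4.76). Loxl1, a lysyl oxidase needed for elastic fibre upkeep, differed by 1.04, and Fbln2, an elastin-binding fibulin, by 0.63. Fbln1 differed by 0.40, the microfibril protein Fbn1 by 0.13 and the cross-linking enzyme Lox by -0.13.

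Several genes departed from this pattern. Dcn (decorin), which coats collagen fibrils, differed by -0.27 in wild-type and by 0.31 in knockout mice, and Timp3, a matrix-bound protease inhibitor, by -0.16 and -0.21. Dcn levels were 6.37, 5.67 and 6.31 on wild-type vehicle, 6.08, 5.81 and 5.64 on wild-type IIAEK, 6.10, 6.07 and 5.70 on knockout vehicle and 5.88, 6.64 and 6.26 on knockout IIAEK. These groups overlapped, and the wild-type IIAEK replicate 3 that was highest for 19 matrix genes was the lowest of all for Dcn. Bgn (biglycan), a close relative of decorin, differed by 0.50 and -0.47, and wild-type vehicle replicate 1 was its lowest array. The gelatin-degrading protease Mmp2 differed by 0.76 and its inhibitor Timp2 by 0.61 in wild type. The growth factor receptors Pdgfra and Pdgfrb differed by 0.40 and 0.21, and Thy1, a surface protein of fibroblasts and lymphocytes, by 0.34.

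These counts moved with single arrays. The number of matrix genes higher at an unadjusted p under 0.05 went from 14 to 4 when either vehicle replicate 3 or IIAEK replicate 3 of the wild type was left out, against 2.84% and 1.96% of all genes. It went to 8 when vehicle replicate 2 of the wild type was left out (3.62% of all genes), and to 21 when vehicle replicate 1 was (6.37%). Without both arrays high in pancreas genes it was 7, against 2.27% of all genes, and the median difference was 0.38. On slide 1, with 1 array against 1, 18 matrix genes were above 0 and 14 below, with a median of 0.027. On slide 2, with 2 arrays against 2, 29 were above 0 and 3 below, with a median of 0.82.

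In the knockout, IIAEK and vehicle groups were close for most matrix genes. Of 32, 13 had a higher mean on IIAEK and 19 a lower one, with a median difference of -0.05, against 53.8% of all genes higher, 46.2% lower and a median of 0.02. Leaving out single arrays moved the count of higher genes from 7, without IIAEK replicate 1 of the knockout, to 21, without its IIAEK replicate 3. The median ran from -0.27, without vehicle replicate 3 of the knockout, to 0.082, so that its sign turned. In limma 0 genes were called (0%), and the smallest adjusted p of a matrix gene was 0.893. At an unadjusted p under 0.05, 0 matrix genes were higher and 0 lower, against 2.34% and 2.29% of all genes. Groups did not overlap in 1 gene that was higher on IIAEK, Col5a2, and in 1 that was lower, Col14a1, against 5.11% and 3.06% of all genes.

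**Figure D3:**
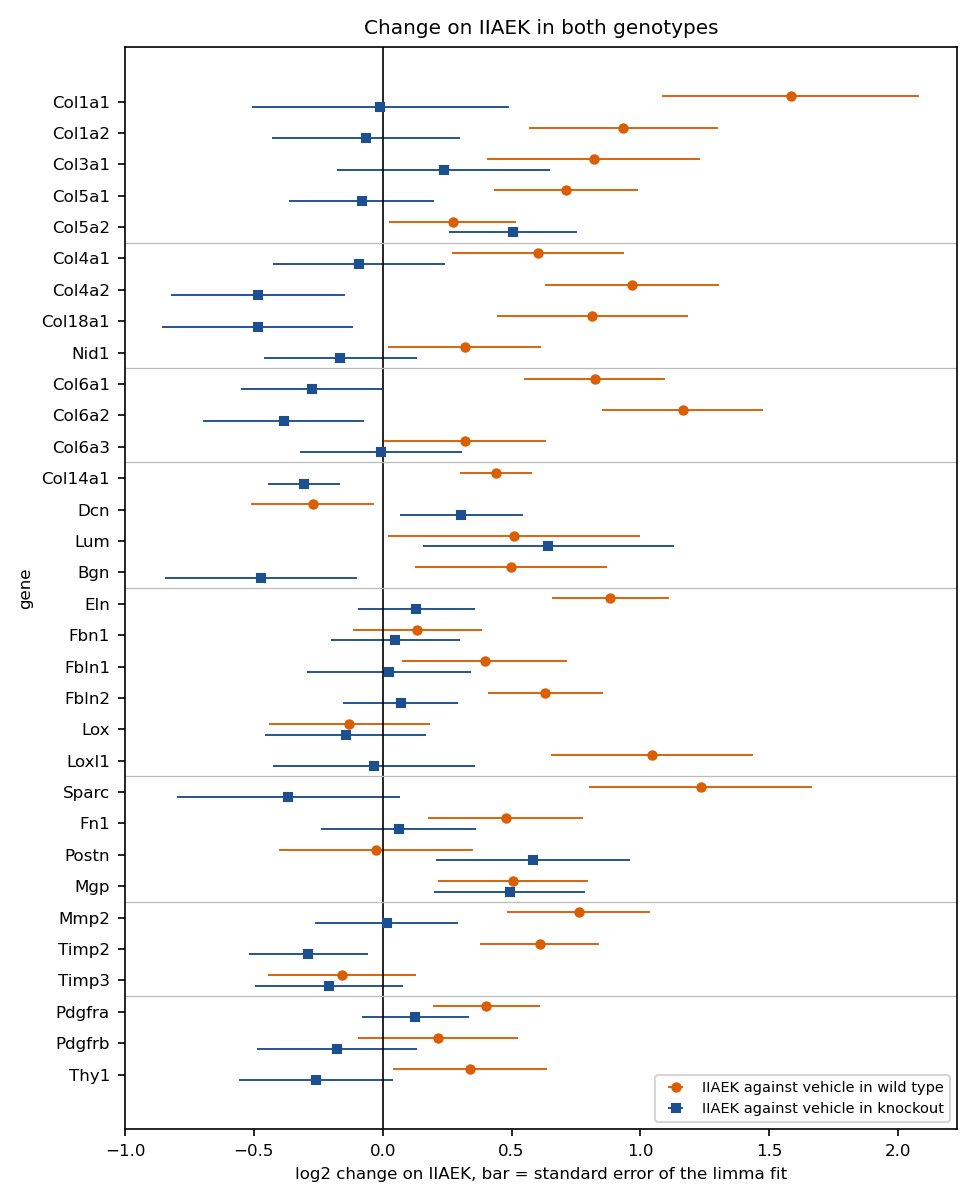
Log2 difference between IIAEK and vehicle (horizontal axis) of each matrix gene (vertical axis) in wild type and in the knockout; bars are the standard errors of the limma fit. Wild-type values lie above 0 for 28 of 32 genes and knockout values for 13.

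Col14a1, a collagen bound to fibril surfaces, had levels of -2.61, -2.73 and -2.84 on wild-type vehicle and -2.39, -2.37 and -2.11 on wild-type IIAEK. Its knockout levels were -2.17, -2.24 and -2.48 on vehicle and -2.48, -2.67 and -2.64 on IIAEK. The order of groups was thus opposite in the 2 genotypes with no overlap in either, although knockout vehicle replicate 3 and knockout IIAEK replicate 1 were both at -2.48 after rounding. On IIAEK the wild-type mean differed by 0.44 and the knockout mean by -0.31 (SE 0.14 for each).

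Lum (lumican), a fibril-spacing proteoglycan, had the largest knockout difference, 0.64 (SE 0.49). Its levels were 2.13, 0.07 and 1.49 on wild-type vehicle, 1.74, 1.80 and 1.68 on wild-type IIAEK, 1.67, 1.74 and 0.46 on knockout vehicle and 1.35, 2.42 and 2.02 on knockout IIAEK. It overlapped in both genotypes and had single low arrays in both vehicle groups. Mgp had levels of 3.16, 2.05 and 2.66 on wild-type vehicle, 3.19, 3.04 and 3.17 on wild-type IIAEK, 3.00, 2.94 and 2.09 on knockout vehicle and 2.97, 3.10 and 3.45 on knockout IIAEK. Its knockout difference was 0.49 (SE 0.29), with overlapping groups. The 95% interval of the Col1a1 difference in the knockout ran from -1.10 to 1.08, and in wild type from 0.49 to 2.68.

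**Figure D4:**
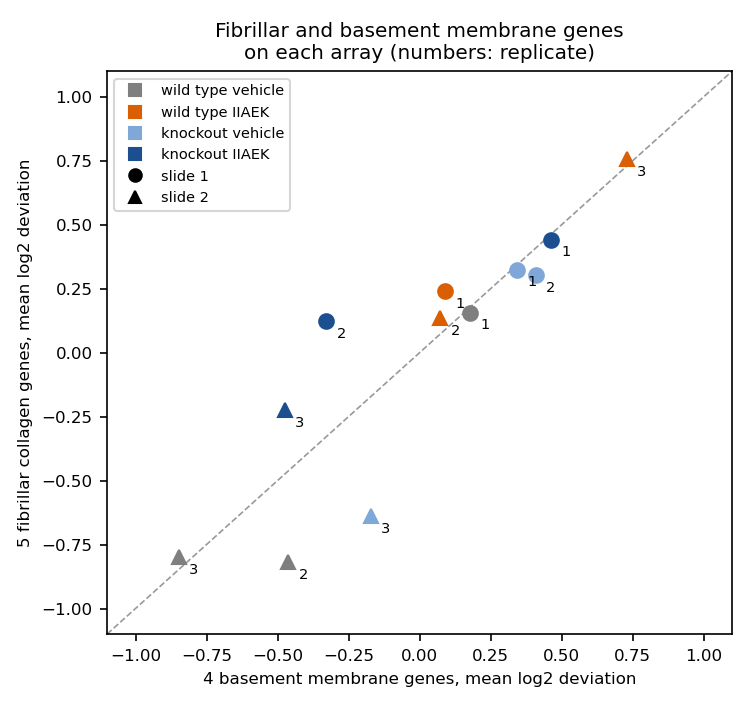
Mean log2 deviation of the 5 fibrillar collagen genes (vertical axis) against that of the 4 basement membrane genes (horizontal axis) on each array, with the line of equality; numbers are replicates. The arrays lie along the line, with fibrillar minus basement membrane values from -0.47 to 0.45.

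Fibrillar and basement membrane genes were set side by side on each array, as the mean deviation of the 5 fibrillar genes minus that of the 4 tested basement membrane genes. This difference was -0.02, -0.35 and 0.05 on wild-type vehicle and 0.15, 0.06 and 0.03 on wild-type IIAEK. It was -0.02, -0.11 and -0.47 on knockout vehicle and -0.02, 0.45 and 0.25 on knockout IIAEK. The largest departures in each direction were thus in the knockout, and the values of its groups touched at -0.02. In wild type the median difference on IIAEK was 0.82 for fibrillar and 0.71 for basement membrane genes, a gap of 0.11, which ran from -0.038 (without vehicle replicate 2 of the wild type) to 0.22 when single arrays were left out. In the knockout it was -0.01 against -0.33, a gap of 0.32, with 2 of 5 fibrillar and 0 of 4 basement membrane genes above 0, and ran from 0.18 to 0.52 when single arrays were left out. Because the genes of each list lie on the same arrays, no p is given for these gaps, and the SD of the array values within groups was 0.20.

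Chains that assemble into the same collagen were followed over the 12 arrays as 6 pairs. The permutations shuffled all 12 arrays without regard to group or slide, so differences between groups or slides enter these p-values. Col1a1 and Col1a2 had a Pearson r of 0.970 (permutation p 1e-05, the smallest possible, adjusted 6.0e-05) and a Spearman rho of 0.944 (permutation p 3e-05, adjusted 0.00018). Without the 2 arrays farthest from the median r was 0.949, and within slides it was 0.796 and 0.987. Only 0.0181% of all genes had an r with Col1a1 at least as high. Col4a1 and Col4a2, whose windows of 300 bases overlap, had an r of 0.832 (permutation p 0.00075, adjusted 0.0015) and a rho of 0.818 (permutation p 0.00195, adjusted 0.0039). It was 0.691 without the 2 farthest arrays and 0.883 and 0.813 within slides, and 1.36% of genes had an r with Col4a1 at least as high. Among collagen VI chains, Col6a1 and Col6a2 had an r of 0.922, or 0.887 without the 2 farthest arrays, and 0.526% of genes had an r with Col6a1 at least as high. The pairs with Col6a3 were looser, at 0.703 with Col6a1 and 0.734 with Col6a2, and 10.4% and 8.18% of genes reached as high. Without the 2 farthest arrays these were 0.589 and 0.549, and on slide 1 they were 0.530 and 0.234. Col5a1 and Col5a2 had an r of 0.188 (permutation p 0.559) and a rho of 0.042 (permutation p 0.904). Without the 2 farthest arrays r was 0.586, and within slides it was -0.665 on slide 1 and 0.038 on slide 2. Genes measured on the same arrays share the labelling and scaling of those arrays.

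On vehicle, 30 of 32 matrix genes had a higher mean in the knockout than in wild type, and 2 a lower one, with a median difference of 0.39. Of all genes, 45.6% were higher and 54.4% lower, with a median of -0.03. This comparison uses the same 3 wild-type vehicle arrays as the wild-type IIAEK comparison. In limma 0 genes were called (0%), and the smallest adjusted p of a matrix gene was 0.428. At an unadjusted p under 0.05, 5 matrix genes were higher, Eln, Col14a1, Col4a2, Col6a1 and Col6a2, and 0 lower, against 4.76% and 6.58% of all genes. The groups did not overlap in 5 genes, Col14a1, Col4a2, Col6a1, Eln and Fbln2, against 10.2% of all genes. Marker lists of other cell types were examined in the same comparison. Smooth muscle genes were higher in the knockout in 14 of 15 (median 0.65, 8 at an unadjusted p under 0.05). B cell genes were higher in 8 of 11 (median 1.34, 6 at an unadjusted p under 0.05). Adipocyte genes were higher in 8 of 8 tested (median 0.57, 0 at an unadjusted p under 0.05). Mesothelial genes were lower in 5 of 6 (median -0.38), and exocrine pancreas genes were higher in 7 of 13 (median 0.0040). Genes of interstitial cells of Cajal and pericytes were higher in 7 of 7 (median 0.42). The part of these cell types in the matrix differences was not tested.

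The largest difference was that of Col1a1, 0.90 (SE 0.50), followed by Col4a2 with 0.89 (SE 0.34) and Eln with 0.87 (SE 0.23). Col6a1 had levels of 2.99, 2.30 and 2.19 on wild-type vehicle and 3.24, 3.22 and 3.15 on knockout vehicle, with no overlap. The count of 5 was 2 without wild-type vehicle replicate 2 or 3 or without knockout vehicle replicate 1 or 2, against 2.96% to 5.02% of all genes. It was 14 without wild-type vehicle replicate 1 (4.69% of all genes) and 13 without knockout vehicle replicate 3 (3.74%). Among the 6 vehicle arrays, the 3 on slide 1 were all above the 3 on slide 2 in 20 of 32 matrix genes, against 9.45% of all genes. Among the 6 IIAEK arrays this held for 1 of 32, against 6.67%. Slide 1 held 1 wild-type and 2 knockout vehicle arrays. With slide as a block, 26 of 32 matrix genes were higher in the knockout, the median was 0.32, and the median of the fibrillar genes went from 0.38 to 0.17. Within slide 1, 21 were higher and 11 lower (median 0.16), and within slide 2, 22 were higher and 10 lower (median 0.30).

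On IIAEK, 10 of 32 matrix genes had a higher mean in the knockout and 22 a lower one, with a median difference of -0.21, against 54.3% of all genes higher, 45.7% lower and a median of 0.03. In limma 0 genes were called (0%), with a smallest adjusted p of 0.619. At an unadjusted p under 0.05, 0 matrix genes were higher and 1 lower, Col6a2 at -0.80 (SE 0.31), against 4.96% and 2.97% of all genes. Groups did not overlap in 2 lower genes, Col6a2 and Col14a1, and in 1 higher gene, Col5a2, against 3.44% and 6.51% of all genes. With slide as a block, 7 matrix genes were lower at an unadjusted p under 0.05, against 4.04% of all genes, and the median was -0.32. Within slide 1, 17 were higher and 15 lower (median 0.0086), and within slide 2, 8 were higher and 24 lower (median -0.47). The largest difference was that of Sparc, -0.84 (SE 0.43). Timp2 had levels of 3.08, 3.06 and 3.67 on wild-type IIAEK and 3.09, 2.80 and 2.42 on knockout IIAEK, which overlapped. On vehicle the wild-type arrays read 3.05, 2.39 and 2.54 and the knockout arrays 3.14, 3.03 and 3.00. The count of lower genes was 9 with IIAEK replicate 1 of the knockout left out and 4 with that of the wild type left out, against 6.9% and 4.67% of all genes. It was 2 with vehicle replicate 1 or IIAEK replicate 2 of the wild type, or vehicle replicate 3 of the knockout, left out, against 1.68% to 3.25% of all genes. It was 0 with IIAEK replicate 3 of either genotype or IIAEK replicate 2 of the knockout left out, against 1.75% to 3.28% of all genes.

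The difference between genotypes in the IIAEK difference was tested directly as the interaction, the knockout difference minus the wild-type difference. It was below 0 in 28 of 32 matrix genes and above 0 in 4, against 44.7% and 55.3% of all genes, with a median of -0.59 against 0.07. In limma 0 genes were called (0%), and the smallest adjusted p of a matrix gene was 0.303. At an unadjusted p under 0.05, 9 matrix genes were below 0 and 0 above, against 5.63% and 9.57% of all genes. The 9 were Col14a1, Col6a2, Col4a2, Col6a1, Timp2, Sparc, Col18a1, Eln and Col1a1. The smallest unadjusted p was that of Col14a1 at -0.75 (SE 0.20, 95% interval -1.18 to -0.31). The largest value was that of Sparc at -1.60 (SE 0.61), beside Col1a1 at -1.59 (SE 0.70), Col6a2 at -1.55 (SE 0.44) and Col4a2 at -1.45 (SE 0.48). With replicate 3 of the wild type left out, on vehicle or on IIAEK, the count of 9 became 5, as it did with vehicle replicate 1 or 2 or IIAEK replicate 3 of the knockout left out, against 3.15% to 4.8% of all genes. It was 6 with vehicle replicate 2 of the wild type or IIAEK replicate 2 of the knockout left out, and 14 with vehicle replicate 1 of the wild type or vehicle replicate 3 of the knockout left out, against 3.91% to 4.57% and 5.54% to 5.56% of all genes. Without both arrays high in pancreas genes it was 8, against 3.39% of all genes. Within slide 1, 20 matrix genes were below 0 and 12 above (median -0.11), and within slide 2, 26 and 6 (median -0.74). Smooth muscle genes were below 0 in 15 of 15 (median -0.87, 7 at an unadjusted p under 0.05) and B cell genes in 9 of 11 (median -2.39, 7 at an unadjusted p under 0.05). Exocrine pancreas genes were below 0 in 13 of 13 (median -4.81, 0 at an unadjusted p under 0.05).

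**Figure D5:**
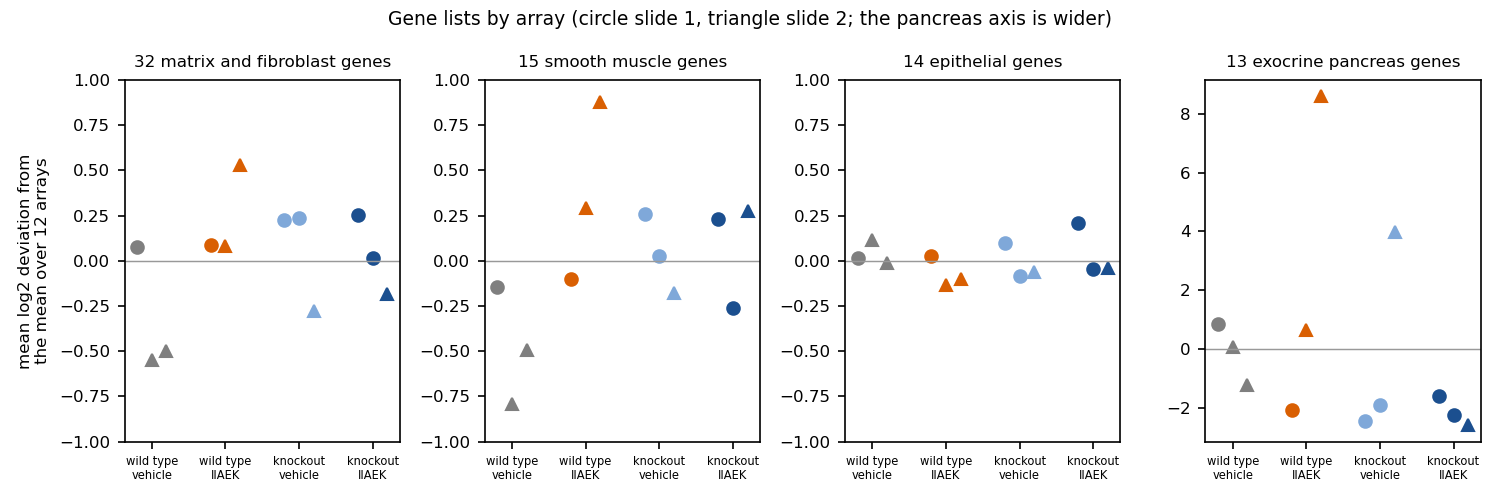
Mean log2 deviation from the mean over 12 arrays for lists of genes, by group; circles are slide 1 and triangles slide 2, and the pancreas list has a wider axis. The smooth muscle list, like the matrix list, is lowest on wild-type vehicle replicates 2 and 3 and highest on wild-type IIAEK replicate 3.

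Other genes of collagen production were examined as lists that do not include the 33 genes. Of 21 tested genes for collagen folding, processing and cross-linking, 16 were higher on IIAEK in wild type, with a median of 0.35. At an unadjusted p under 0.05, 9 were higher, against 5.83% of all genes. Crtap, part of the prolyl 3-hydroxylation complex, differed by 0.75 (SE 0.19), Pcolce, an enhancer of procollagen C-proteinase, by 1.13 (SE 0.35) and Serpinh1, the collagen chaperone HSP47, by 0.89 (SE 0.28). In the knockout 9 of 21 were higher, with a median of -0.04. Of 5 further fibrillar collagens tested, 4 were higher in wild type, with Col27a1 at 0.62 and Col2a1 at 0.84. Of 18 further basement membrane genes, 15 were higher and 3 lower with a median of 0.27, and differences ran from -0.90 to 0.77. Among the higher ones were the collagen IV chain Col4a6 and the laminin chain Lamb2, each at 0.66. Of 16 ligands, receptors and targets of TGF-beta signalling, a main inducer of matrix genes in fibroblasts, 11 were higher and 5 lower with a median of 0.15. At an unadjusted p under 0.05, 3 were higher and 1 lower, against 5.83% and 6.98% of all genes. Among the 3 were the ligand Tgfb1 at 0.84 and its binding protein Ltbp4 at 0.74. Differences of the 16 genes ran from -0.93 to 0.84. In the knockout 7 were higher and 9 lower with a median of -0.20. At an unadjusted p under 0.05, 0 were higher and 3 lower there, against 2.34% and 2.29% of all genes. No gene of these lists passed the adjusted threshold.

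Of the marker lists for other cell types, that of smooth muscle is given first. All 15 smooth muscle genes had a higher mean on IIAEK in wild type, against 43.8% of all genes, with a median of 0.89. At an unadjusted p under 0.05, 10 of the 15 were higher, against 5.83% of all genes. Des differed by 1.18, Acta2 by 1.15 and Tpm2 by 1.19. In the knockout 8 of 15 were higher, with a median of 0.01. The mean deviation of the list ranged from -0.79 to -0.15 on wild-type vehicle, from -0.10 to 0.88 on wild-type IIAEK, from -0.18 to 0.26 on knockout vehicle and from -0.26 to 0.27 on knockout IIAEK. The mean over the 32 matrix genes ranged from -0.55 to 0.08, from 0.08 to 0.53, from -0.28 to 0.24 and from -0.18 to 0.25 in the same order. B cell genes also differed between groups, but were high on wild-type vehicle replicate 3 (1.12), where the matrix genes were low (-0.50). On IIAEK 8 of 11 were higher in wild type (median 0.83) and 9 of 11 lower in the knockout (median -1.60). Their mean deviation ranged from -1.33 to 1.12 on wild-type vehicle, from -0.83 to 1.43 on wild-type IIAEK, from 0.88 to 1.34 on knockout vehicle and from -1.30 to -0.82 on knockout IIAEK. The 6 mesothelial genes were all higher on IIAEK in the knockout (median 1.26), 0 of them at an unadjusted p under 0.05, against 2.34% of all genes. In wild type 5 of the 6 were higher on IIAEK (median 0.70), again 0 at an unadjusted p under 0.05, against 5.83% of all genes. Of 11 endothelial genes, 8 were higher in wild type with a median of 0.25 and 3 in the knockout with a median of -0.37. All 13 exocrine pancreas genes were higher on IIAEK in wild type (median 2.59) and lower in the knockout (median -2.14). In both genotypes 0 of these 13 had an unadjusted p under 0.05. The mean deviation of the 14 epithelial genes lay between -0.13 and 0.21 over all arrays. In wild type 9 of them were lower on IIAEK, against 56.2% of all genes, with differences of single genes from -0.43 to 0.18. At an unadjusted p under 0.05, 2 epithelial genes were lower, against 6.98% of all genes. Smooth muscle cells also produce matrix, and the part of the muscle, lymphoid, vessel and pancreas content of the samples in the matrix differences was not tested.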

How the data were processed

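Jejunum of 4 groups of 3 mice was measured, 1 mouse per array. The authors labelled total RNA with Cy3 and, per the file headers, used Agilent 8x60K arrays annotated on mm9 and Feature Extraction 10.7.3.1. The deposited array files hold background-subtracted intensity per spot, and the deposited value table holds log2 values, which follow the scaled signals centred per probe; their scaling is not given in the sources used here. Non-uniform outlier spots were removed (0 to 4 per array), spots of a probe averaged, and the 75th percentile over probes subtracted from the log2 processed signal. The brightest probe stood for a gene. The filter kept genes that in some group were above background in each of its 3 arrays, and these were tested in limma 3.58.1 (R 4.3.3), with 4 group means and 8 residual degrees of freedom. RefSeq accessions named 32994 of 56605 probes. Scripts were tested on simulated data. P-values of the fit weigh differences of group means against the spread between these mice, and 3 arrays per group limit the precision.

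The 33 genes and the lists were chosen with earlier results of these data known. Values on every array are given for Col1a1, Col1a2, Col3a1, Col4a1, Col4a2, Col18a1, Nid1 and Sparc and, per comparison, for the 3 genes of smallest unadjusted p and the gene of largest difference; of each other list, up to 3 genes of smallest p. Alternatives were normexp background correction on median signals, quantile normalization, no filter, the mean of all probes, slide or replicate number as a block, the value table, only the groups compared, within-slide values and leaving out arrays.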

Additional observations from a re-analysis of the deposited data

Results flagged for a closer look

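Col14a1 was flagged because its groups were apart in opposite directions. All 3 wild-type IIAEK arrays were above the wild-type vehicle arrays, and all 3 knockout IIAEK arrays were below the knockout vehicle arrays. The knockout margin was narrow, between -2.478 on the lowest vehicle array and -2.485 on the highest IIAEK array. The difference between the genotypes was -0.75 on the log2 scale, with an adjusted p of 0.303 in limma, so that it did not pass the threshold. Groups apart in opposite directions in this way were found in 486 of 27555 genes with values on all arrays, or 1.76%. Of the matrix genes tested, only Col14a1 had this pattern, which is too few to set against that share.

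The same value, -0.75, stands for Col14a1 between knockout and wild type, higher in the knockout on vehicle and lower on IIAEK with no overlap in either. That pattern was found in 355 genes, or 1.29%.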

How the results depend on the processing

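The count of called matrix genes was 0 under every alternative run. Genes called overall numbered 1 with slide as a block for IIAEK in wild type, for knockout against wild type on IIAEK and for the interaction. With only the groups compared they numbered 14 for IIAEK in the knockout, 1 for the genotypes on vehicle and 5 for the genotypes on IIAEK; this alternative is the same as the full fit for the interaction. Leaving out single arrays gave 0 to 1, 0 to 2 and 0 to 3 calls for IIAEK in wild type and for the genotypes on vehicle and on IIAEK. With replicate number as a block the median of matrix genes for IIAEK in wild type stayed at 0.51, and the counts of called genes did not leave 0. Of 18 same-number correlations of deviations, 8 exceeded 0.1 (range -0.25 to 0.35). Arrays of unlike number were not correlated beside them, so these values do not decide whether numbers pair mice. The labels do not say that they do.

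For IIAEK in wild type the median was 0.027 on slide 1 alone and 0.82 on slide 2 alone, and the interaction median -0.11 within slide 1. Leaving out single arrays moved the fibrillar minus basement membrane gap on vehicle between genotypes over -0.31 to 0.078, the upper value without knockout vehicle replicate 3, also when wild-type IIAEK replicate 3 was left out with it (0.078, chosen after seeing the data). The gap was 0.83 for IIAEK in the knockout within slide 2, and 0.51 for the interaction with no filter, where Col15a1 joins.

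Directions reversed within slide 1 for IIAEK in wild type in Col1a2 (-0.00032), Col3a1 (-0.013), Col4a1 (-0.17) and Nid1 (-0.40); for IIAEK in the knockout in Col3a1 (-0.076); for the genotypes on vehicle in Nid1 (-0.21); for the genotypes on IIAEK in Col1a1 (0.047), Col3a1 (0.054), Col4a2 (0.026) and Sparc (0.078); and for the interaction in Nid1 (0.14). Within slide 2 they reversed for IIAEK in the knockout in Col1a1 (0.47), Col1a2 (0.23), Col4a1 (0.32) and Nid1 (0.014), and for the genotypes on vehicle in Col3a1 (-0.22). The mean of all probes gave 0.030 for Col1a1 in the knockout. Leaving out both arrays high in pancreas genes gave -0.25 for Col3a1 in the knockout, and 0.012 and 0.031 for Col3a1 and Col4a1 between genotypes on IIAEK. Leaving out single arrays gave, for IIAEK in the knockout, -0.53 to 0.27 for Col1a1, -0.36 to 0.13 for Col1a2, -0.25 to 0.52 for Col3a1, -0.33 to 0.092 for Col4a1 and -0.70 to 0.067 for Sparc, and for the genotypes on IIAEK -0.38 to 0.012 for Col3a1 and -0.38 to 0.031 for Col4a1. The cause of these moves was not tested. Within-slide values rest on 1 or 2 arrays per group. Background correction used median signals, since mean signals were not used here.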
